A study of Homo sapiens with 15 samples.

Results

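The genes described here encode the proteins of the mitochondrial ribosome, and they were taken by symbol: every gene of either count table named MRPL or MRPS plus a number and, where present, a letter from A to C. This gave 78 genes of the 16324 listed in either table, 49 of the large subunit (MRPL) and 29 of the small subunit (MRPS). They were followed in IHA cells, an established line of fetal human astrocytes immortalized with SV40. The cells carried a mutant IDH1 that 1 µg/ml doxycycline turned on, named R132H in the design text. The 15 RNA samples were 6 grown without doxycycline (3 tagged b1 and 3 tagged b2 in their titles), 4 at day 3 of doxycycline (all b2) and 5 at day 7 (1 of b1 and 4 of b2). The genotype label reads WT IDH1 in every sample, so all groups share it, and no sample received doxycycline without the inducible gene, so an effect of the drug and one of the mutant enzyme cannot be told apart. The tags b1 and b2 were taken as batches, and the labels do not say what differed between them or whether replicates were separate cultures, so p-values measure only the spread between these samples.

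The mitochondrial ribosome reads the few messages that mitochondrial DNA encodes, all of them for subunits of the respiratory chain and the ATP synthase. Its RNA comes from mitochondrial DNA, but all of its proteins are encoded in the nucleus, made in the cytosol and imported. The small subunit binds the message and holds the decoding centre, and the large subunit joins the amino acids and lies against the inner membrane. Some of its proteins have bacterial homologues and others are named as specific to mitochondria: by the standard nomenclature 30 of the 49 large and 16 of the 29 small subunit members are of the first kind, and 19 and 13 of the second.

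As the members are scattered over the nuclear genome, their promoters are shown for the letters they hold in common. RefSeq promoters (GRCh38.p14, 250 bases before to 50 after the start) could be matched for 69 of the 78 members. On either strand, the letters CCGGAAG, the core bound by ETS factors such as GABPA, stood in 42.0% of member promoters, in 10.7% of all 27305 promoters and in 20.4% of the promoters of genes tested at day 7. The letters ANATGGCG, a core of the YY1 motif, stood in 27.5% of member promoters, against 4.75% and 9.35%. The core of the NRF1 motif stood in 11.6%, against 6.28% and 12.5%. Letters of a TATA box (TATAAA) stood in 2.90%, against 12.0% and 5.27%, and GGGCGG, an SP1 core, in 60.9%, against 44.6% and 72.2%. Among the 21 members with a promoter that rose at day 7, 38.1% held the ETS letters and 19.0% the YY1 letters, and among the 44 tested members that did not pass, 43.2% and 27.3% did. So the members that rose did not hold either set of letters more often than the members that did not. The 5 stretches below are from members that rose at day 7 and show the ETS letters once or in a pair (MRPL3, MRPL58, MRPS22), the YY1 letters in a pair (MRPL52) and the NRF1 letters (MRPL36). They are the parts upstream of the start that lie outside annotated exons, 5′ to 3′ on the gene's strand. Matches to the ETS, YY1 and NRF1 letters are in capitals, and those to the SP1 letters are not marked. MRPL3 is from chr3:131502984-131503221 (minus strand), MRPL58 from chr17:75012420-75012669 (plus), MRPS22 from chr3:139343744-139343955 (plus), MRPL52 from chr14:22829637-22829882 (plus) and MRPL36 from chr5:1799896-1800087 (minus).
MRPL3: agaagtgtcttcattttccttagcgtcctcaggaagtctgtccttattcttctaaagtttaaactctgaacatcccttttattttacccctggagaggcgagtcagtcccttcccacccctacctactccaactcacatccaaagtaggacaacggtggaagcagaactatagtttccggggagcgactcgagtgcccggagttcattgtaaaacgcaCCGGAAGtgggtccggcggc
MRPL58: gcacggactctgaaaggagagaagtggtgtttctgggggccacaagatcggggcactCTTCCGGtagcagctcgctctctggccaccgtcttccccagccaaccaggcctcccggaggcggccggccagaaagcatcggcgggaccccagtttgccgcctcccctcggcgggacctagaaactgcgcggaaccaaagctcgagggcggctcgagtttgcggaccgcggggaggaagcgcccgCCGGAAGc
MRPS22: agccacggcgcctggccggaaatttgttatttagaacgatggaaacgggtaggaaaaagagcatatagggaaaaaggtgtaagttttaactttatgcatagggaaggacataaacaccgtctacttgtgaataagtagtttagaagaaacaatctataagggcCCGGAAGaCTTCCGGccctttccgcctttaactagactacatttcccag
MRPL52: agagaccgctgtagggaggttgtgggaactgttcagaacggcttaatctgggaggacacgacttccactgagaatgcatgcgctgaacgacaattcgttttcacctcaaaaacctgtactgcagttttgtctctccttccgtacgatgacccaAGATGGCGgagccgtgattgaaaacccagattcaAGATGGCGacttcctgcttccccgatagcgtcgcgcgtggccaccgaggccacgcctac
MRPL36: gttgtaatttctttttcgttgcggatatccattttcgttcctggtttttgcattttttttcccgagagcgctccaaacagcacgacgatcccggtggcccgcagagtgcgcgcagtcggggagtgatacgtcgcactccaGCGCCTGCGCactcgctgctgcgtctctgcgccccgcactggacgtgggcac

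Expression was measured by bulk MARS-seq, which counts unique molecular identifiers (UMIs) at the 3′ ends of transcripts. The authors deposited 2 count tables: one of untreated and day 7 libraries of both batches (the day 7 table, 2573290 to 5567651 UMIs per library) and one of the b2 libraries at all 3 times (the day 3 and day 7 table, 1816599 to 4656705 UMIs). The day 7 table lists 76 members and the other 75, with 73 in both. Values below are UMI shares scaled to the usual CPM unit with TMM library sizes. IDH1 itself held 26.4 to 43.4 CPM in the day 7 table and did not pass the test at day 7 (log2 change 0.22 ± 0.11, edgeR adjusted p = 0.178). The sources used here do not say whether the induced copy carries the 3′ end that is counted, so this checks nothing. Of 12 astrocyte markers 7 were listed, and GFAP, AQP4, SLC1A2, ALDH1L1 and FABP7 were in neither table. In the day 7 table the 7 summed to 6591 to 7311 CPM in untreated b1 and 7055 to 8267 in untreated b2. They summed to 6835 CPM in day 7 b1 and 8222 to 9974 in day 7 b2, and of 6 tested 2 rose at day 7 and 0 fell. The 2 neuronal markers tested did not pass, MBP of the oligodendrocyte list fell, and of 2 endothelial markers 1 rose and 1 fell. Of the microglial list only CSF1R was listed, at 1.33 to 3.19 CPM in untreated b1, 0.182 to 0.971 in untreated b2, 3.98 in day 7 b1 and 1.44 to 2.45 in day 7 b2, and it rose at day 7 (log2 change 1.54 ± 0.42, adjusted p = 0.0144). The 4 listed fibroblast and pericyte markers summed to 837 to 883 CPM in untreated b2 and 447 to 650.5 CPM in day 7 b2 libraries, with 992 to 1072 in untreated b1 and 991 in day 7 b1. Of the 4, 2 fell at day 7 and 0 rose, where 7.28% of all genes fell and 8.43% rose. The part of these markers in the results below was not tested. In bulk samples, fewer cells of a type and less RNA per cell cannot be told apart.

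The large subunit genes were higher at day 7 than in untreated cells of the same batch, and so were the small subunit genes, while day 3 lay near untreated. In the day 7 table the 47 listed large subunit members together held 6224, 5929 and 5864 CPM in untreated b1, 5192, 5171 and 5155 in untreated b2, 7156 in day 7 b1, and 6198, 5759.7, 5551 and 5918 in day 7 b2. The 29 small subunit members held 2965, 2801 and 2869 CPM in untreated b1, 2813, 2899 and 2826 in untreated b2, 3278 in day 7 b1, and 3297, 3114, 3042 and 3183 in day 7 b2. Within each batch every day 7 library lay above every untreated one for both subunits, but untreated b1 and day 7 b2 overlapped for the large subunit. In the day 3 and day 7 table, large subunit sums were 6209, 6159.7 and 6059 in untreated, 6227, 6189, 6132 and 6299 at day 3, and 7374, 6809, 6546 and 6806 at day 7. Small subunit sums there were 3305, 3394 and 3253 CPM in untreated, 3422, 3396, 3327 and 3475 at day 3, and 3805, 3609, 3586 and 3606 at day 7. Day 3 overlapped untreated for both subunits, and every day 7 library lay above both. The same b2 libraries enter both tables, so these are not 2 independent measurements. With library size alone as the scaling, day 7 sums of the day 7 table still lay above untreated within each batch. The day 7 b1 library then held 6485 CPM for the large subunit, against 5850 to 6044 in untreated b1. For the small subunit it held 2971 CPM, against 2793 to 2879, so the size of the b1 rise depended on the scaling. These sums are a description with no test.

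**Figure D1:**
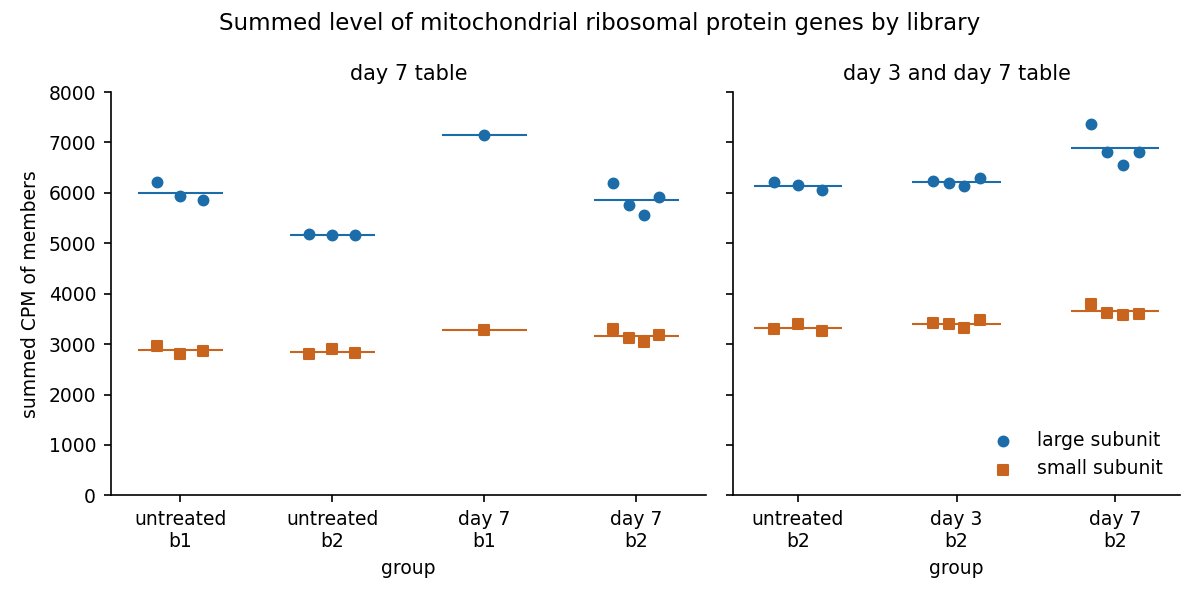
Summed CPM of the large subunit (circles) and small subunit (squares) members in each library, by group, for the day 7 table (left) and the day 3 and day 7 table (right); lines are group means. Day 7 lies above untreated of the same batch for both subunits, and untreated b1 lies above untreated b2 for the large subunit.

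The balance of the subunits differed more between batches than with doxycycline. The ratio of the large to the small subunit sum was 2.09 ± 0.04 in untreated b1 (SD, n = 3), 2.18 in the day 7 b1 library, 1.82 ± 0.03 in untreated b2 (SD, n = 3) and 1.85 ± 0.02 in day 7 b2 (SD, n = 4). In the day 3 and day 7 table it was 1.85 in untreated, 1.82 at day 3 and 1.88 at day 7. Every b1 library lay above every b2 library in this ratio. MRPS18A and MRPS30 carry small subunit names but are known from structures of the ribosome to sit in the large subunit. Counted there, the ratios were 2.22 in untreated b1, 2.33 in day 7 b1, 1.93 in untreated b2 and 1.97 in day 7 b2.

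Levels between members ranged widely, on a scale that counts 1 end per transcript and is not divided by length. The median member held 117 CPM in the large and 81.7 CPM in the small subunit in the day 7 table. MRPL52 (359 CPM), MRPL51 (348 CPM) and MRPS21 (317 CPM) were highest, and the 10 highest of each subunit made up 45.7% of the large and 64.4% of the small subunit sum. MRPL38 (0.908 CPM), MRPS24 (1.22 CPM) and MRPL46 were among the lowest. MRPL38 and MRPL46 were at 81.7 CPM or more and 76.5 CPM or more in every library of the other table, so their levels depended on the table.

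After 7 days of doxycycline, 24 of the 74 members tested rose and 0 fell by edgeR's quasi-likelihood test, fitted with the batch as a term, at an adjusted p under 0.05 over all genes tested. Of all 12449 genes, 15.7% passed, 8.43% higher and 7.28% lower, and of the members 32.4% rose. Their median log2 change was 0.20, against -0.02 over all genes, and 67 of the 74 lay above 0. At an unadjusted p under 0.05, 41 members were higher and 0 lower. In b2, every day 7 library lay above every untreated library for 31 members (12.0% of all genes) and below for 2 (13.1%). Changes given below as a value ± SE are log2 fold changes from this test, and levels are CPM. The rises ran from 1.15-fold to 1.5-fold with a median of 1.24-fold.

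Members of both subunits rose. Of the large subunit 16 of 46 members rose, with a median log2 change of 0.21, and of the small subunit 8 of 28, with a median of 0.20. Among members with bacterial homologues 9 of 30 large and 5 of 15 small subunit genes rose, and among those named as specific to mitochondria 7 of 16 and 3 of 13. The difference between subunits or classes was not tested, since the members are not replicates. MRPS24 and MRPL38 were too low in the day 7 table to be tested.

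**Figure D2:**
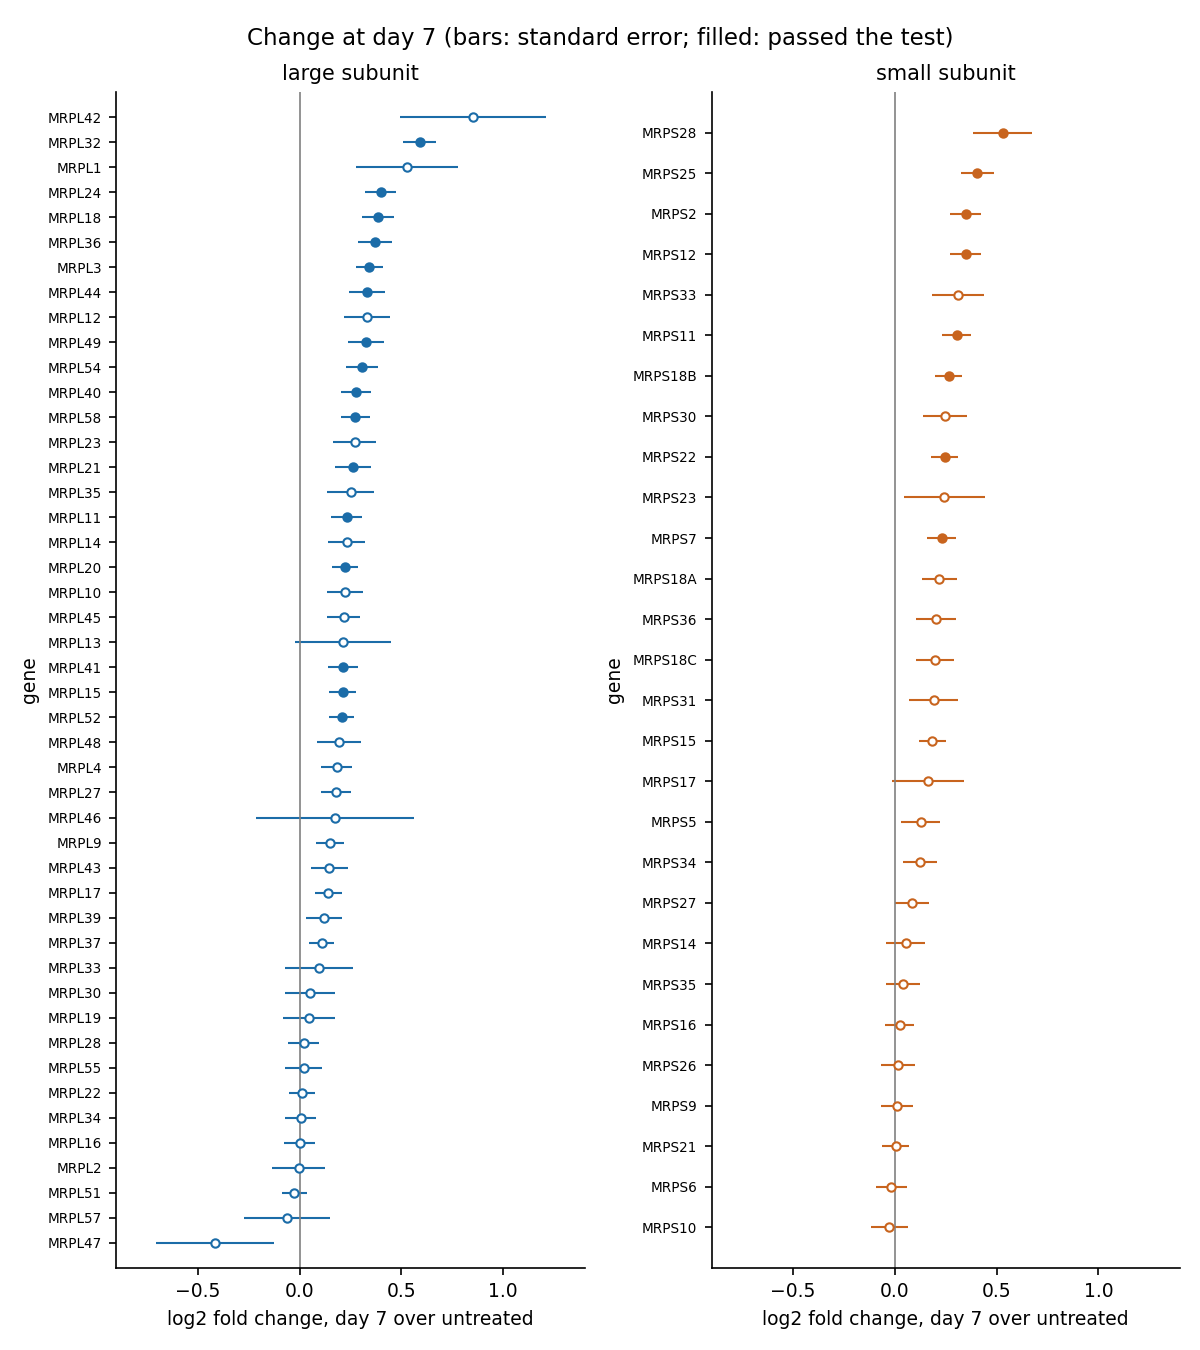
Log2 fold change of day 7 over untreated for each member tested (day 7 table, batch term), large subunit on the left and small subunit on the right, with bars for the standard error and filled points for members that passed the test. In both panels most points lie right of 0, and MRPL32, MRPS28 and MRPS25 lead the members that passed.

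MRPL32 led the large subunit. Its protein is imported as a precursor that the m-AAA protease of the inner membrane matures before it joins the ribosome, and its gene lies at chr7:42932200-42948958 (GRCh38, plus strand). MRPL32 held 86.5, 91.6 and 89.8 CPM in untreated b1, 77.9, 79.1 and 81.4 in untreated b2, 116 in day 7 b1 and 141, 122, 114 and 130.3 in day 7 b2. All 5 day 7 libraries lay above all 6 untreated ones, and the log2 change was 0.59 ± 0.08 (SE, adjusted p = 2.16e-05) (edgeR). The change was 0.69 in b2 alone (adjusted p = 1.9e-05) and 0.38 in b1.

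MRPL3, a protein of the large subunit core, lies at chr3:131462212-131502983 (minus strand). In b1, MRPL3 held 146, 144 and 145 CPM untreated and 186 at day 7, and in b2 it held 151, 137 and 147 untreated and 175, 177, 192 and 186 at day 7. The day 7 libraries again did not overlap the untreated ones, and the log2 change was 0.34 ± 0.06 (SE, adjusted p = 0.000891). It was 0.35 in b2 alone (adjusted p = 0.00379) and 0.36 in b1. The b1 value sets 1 day 7 library against 3, and its test (edgeR adjusted p = 0.0443) takes the spread from all 4 groups, so b1 was not tested by itself.

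MRPL24 and MRPL18, both homologues of bacterial ribosomal proteins, also rose. The CPM of MRPL24 were 137, 139.5 and 138 in untreated b1 and 174 in day 7 b1, with 122, 114 and 137 in untreated b2 and 188, 169, 149.5 and 160.4 in day 7 b2. MRPL18 held 168, 150.05 and 159 CPM in untreated b1, 156, 154 and 150.2 in untreated b2, 173 in day 7 b1 and 237, 223, 206 and 197 in day 7 b2. For MRPL24 no day 7 library overlapped the untreated ones, and the log2 change was 0.40 ± 0.08 (SE, adjusted p = 0.000938). For MRPL18 the 4 day 7 b2 libraries stood clear, while the day 7 b1 library at 173 CPM was close to the highest untreated b1 library at 168. Its log2 change was 0.38 ± 0.08 (SE, adjusted p = 0.00177) pooled, 0.51 in b2 alone and 0.11 in b1, again with 1 day 7 library.

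MRPL36, the small protein that is among the last to join the large subunit, changed by 0.37 ± 0.08 (SE, adjusted p = 0.00364) on the log2 scale. In b1, MRPL36 held 98.8, 91.6 and 102 CPM untreated and 121 at day 7, and in b2 it held 110.0, 96.2 and 92.2 untreated and 111, 135, 130.0 and 148 at day 7. In b2 the lowest day 7 library, at 111 CPM, stood barely above the highest untreated one, at 110. MRPL58, also known as ICT1, is a peptidyl-tRNA hydrolase that frees stalled ribosomes and is also built into the large subunit. The CPM of MRPL58 were 125, 118 and 126 in untreated b1 and 147 in day 7 b1, with 103, 126 and 117 in untreated b2 and 147, 137, 135 and 144 in day 7 b2. All day 7 libraries lay above all untreated ones, with a log2 change of 0.27 ± 0.07 (SE, adjusted p = 0.0108). Without untreated b2 replicate 1, its lowest library, the adjusted p became 0.0616.

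MRPL44, which holds a domain like that of RNase III, MRPL40, MRPL49, MRPL52 and MRPL54 belong to the proteins without a bacterial homologue. MRPL44 changed by 0.33 ± 0.09 (SE, adjusted p = 0.0125) and MRPL40 by 0.28 ± 0.07 (SE, adjusted p = 0.0111) on the log2 scale. MRPL40 held 131, 113 and 117 CPM in untreated b1, 130.1, 129.7 and 130.0 in untreated b2, 141 in day 7 b1 and 148, 158, 152 and 180.5 in day 7 b2. MRPL40 did not overlap between the groups within b2, where the untreated libraries were nearly equal. MRPL54 changed by 0.31 ± 0.08 (SE, adjusted p = 0.011) and MRPL49 by 0.33 ± 0.09 (SE, adjusted p = 0.0155), and both calls rested on the day 7 b1 library, replicate 13. In b1, MRPL49 held 107, 105 and 108 CPM untreated and 167 at day 7, and in b2 it held 81.3, 82.0 and 65.2 untreated and 94.9, 79.5, 86.5 and 84.5 at day 7. Within b2 the groups of MRPL49 overlapped, and without that library the adjusted p was 0.186 for MRPL49 and 0.0769 for MRPL54.

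MRPL52, the member with the highest mean level, changed by 0.21 ± 0.06 (SE, adjusted p = 0.0286). The CPM of MRPL52 were 426, 388 and 399.6 in untreated b1 and 492 in day 7 b1, with 290.1, 299 and 309 in untreated b2 and 315, 340.0, 327 and 366 in day 7 b2. Within each batch day 7 lay above untreated, and every b1 library lay above every b2 library. Its call was lost without untreated b2 replicate 1 or 2, day 7 b1 replicate 13 or day 7 b2 replicate 20, with adjusted p up to 0.0784. MRPL20 changed by 0.22 ± 0.06 (SE, adjusted p = 0.0192) and MRPL15 by 0.21 ± 0.07 (SE, adjusted p = 0.029). The call of MRPL20 was lost without untreated b2 replicate 4 (adjusted p = 0.0708), and that of MRPL15 without untreated b2 replicate 1 or 2 (adjusted p up to 0.073). A gene on the other strand overlaps the 3′ end of MRPL20, and as the sources used here do not say that counting used strand, their reads cannot be told apart. Of the members that rose, the same holds for MRPL44, MRPL49, MRPS2, MRPS7 and MRPS25. In MRPS28 the overlapping gene lies on the same strand, so there too the reads cannot be told apart. MRPL11, MRPL21 and MRPL41, at log2 changes of 0.23, 0.26 and 0.21, were near the threshold and passed in 3, 4 and 3 of the 11 fits that each left out 1 library, with adjusted p up to 0.0986, 0.13 and 0.187.

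In the small subunit, MRPS12, MRPS2 and MRPS11 are homologues of bacterial proteins, and MRPS12 forms part of the decoding centre. MRPS12 held 169, 158 and 149 CPM in untreated b1, 144, 163 and 158 in untreated b2, 227 in day 7 b1 and 183, 179, 176 and 213 in day 7 b2. The log2 change of MRPS12 was 0.35 ± 0.07 (SE, adjusted p = 0.00264), and it was 0.30 in b2 alone (adjusted p = 0.021) and 0.51 in b1, where 1 day 7 library stands for its group. In b1, MRPS2 held 155, 148 and 141 CPM untreated and 174 at day 7, and in b2 it held 85.9, 88.7 and 86.1 untreated and 113, 132, 105 and 111 at day 7. MRPS2 differed more between the batches than with doxycycline, and within each batch day 7 was higher, with a log2 change of 0.35 ± 0.08 (SE, adjusted p = 0.0032). The CPM of MRPS11 were 171, 142 and 146 in untreated b1 and 188 in day 7 b1, with 111, 119 and 110.2 in untreated b2 and 146, 137, 135 and 144 in day 7 b2. MRPS11 did not overlap within either batch and changed by 0.30 ± 0.07 (SE, adjusted p = 0.00493).

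Mammals have 3 proteins related to bacterial S18, MRPS18A, MRPS18B and MRPS18C, of which the nomenclature counts the last alone as its homologue. Of their genes MRPS18B rose, by 0.26 ± 0.07 (SE, adjusted p = 0.00795). MRPS18B held 142, 136 and 139 CPM in untreated b1, 203, 224 and 227 in untreated b2, 163 in day 7 b1 and 281, 245, 275 and 255 in day 7 b2. The groups were apart within each batch. MRPS18A was at 0.22 ± 0.08 (SE, adjusted p = 0.083) and MRPS18C at 0.20 ± 0.09 (SE, adjusted p = 0.154), which did not pass. MRPS22 and MRPS25, 2 members of the mitochondria-specific class, changed by 0.25 ± 0.07 (SE, adjusted p = 0.0138) and 0.41 ± 0.08 (SE, adjusted p = 0.0016). In b1, MRPS22 held 99.0, 95.1 and 91.8 CPM untreated and 114 at day 7, and in b2 it held 106, 106 and 109 untreated and 126, 129, 124 and 126 at day 7. The CPM of MRPS25 were 69.6, 62.4 and 67.6 in untreated b1 and 83.7 in day 7 b1, with 64.3, 69.4 and 72.4 in untreated b2 and 106, 89.0, 85.1 and 92.1 in day 7 b2. Both were higher in all 5 day 7 libraries than in all 6 untreated ones. MRPS25 depended on the table: with the b2 counts of the day 3 and day 7 table, where it held 3.57 to 6.20 CPM, its change was 0.01 (adjusted p = 0.99). The gene NR2C2 overlaps its 3′ end on the other strand.

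MRPS28, related to bacterial S1, had the largest change of the small subunit at 0.53 ± 0.15 (SE, adjusted p = 0.0151). MRPS28 held 9.31, 7.79 and 10.9 CPM in untreated b1, 9.22, 9.84 and 8.64 in untreated b2, 13.9 in day 7 b1 and 11.8, 14.1, 14.3 and 13.2 in day 7 b2. The groups did not overlap, at 20 to 82 UMIs per library. In the day 3 and day 7 table, where MRPS28 held 82.2 to 114 CPM, the day 7 change was 0.23 (adjusted p = 0.117). MRPS7, which contacts the RNA of the small subunit head, changed by 0.23 ± 0.07 (SE, adjusted p = 0.0302). Its call was lost without untreated b2 replicate 4, day 7 b1 replicate 13 or day 7 b2 replicate 20, with adjusted p up to 0.0771.

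Leaving out each of the 11 libraries in turn, 14 of the 24 calls passed every time: MRPL3, MRPL18, MRPL24, MRPL32, MRPL36, MRPL40, MRPL44, MRPS2, MRPS11, MRPS12, MRPS18B, MRPS22, MRPS25 and MRPS28. All 24 were higher in b1 and in b2 when taken apart. The count was 19 of 73 in b2 alone, where 1744 of 12032 genes passed in either direction. With library size alone as the scaling it was 15 of 74, where 2096 of 12449 genes passed. Without a batch term it was 6 of 74, where 316 of 12449 genes passed. Taking b2 from the day 3 and day 7 table it was 12 of 74, where 1495 of 10605 genes passed in either direction. Of the 23 risen members listed there 10 passed. In b1, with its 1 day 7 library, the median log2 change of the members was 0.23.

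Other members did not pass and are given as values. In b1, MRPL12 held 351, 301 and 261 CPM untreated and 492.94 at day 7, and in b2 it held 189.8, 195 and 192 untreated and 263, 206, 189.7 and 199 at day 7. MRPL12, the stalk protein that is also known to bind the mitochondrial RNA polymerase, was at 0.33 ± 0.11 (SE, adjusted p = 0.0645), with the day 7 b1 library far above and the b2 groups overlapping. MRPL42 (log2 0.85 ± 0.36 (SE, adjusted p = 0.111)) and MRPL1 (log2 0.53 ± 0.25 (SE, adjusted p = 0.162)) had large but uncertain changes at low levels, 1 to 14 UMIs per library for MRPL42. MRPL47 was the lowest, at -0.41 ± 0.29 (SE, adjusted p = 0.36). MRPL51 and MRPS21, among the highest members, were at -0.03 ± 0.06 (SE, adjusted p = 0.815) and 0.00 ± 0.07 (SE, adjusted p = 0.97). MRPS30 was at 0.25 ± 0.11 (SE, adjusted p = 0.118) and MRPS36, which is also known as a part of the alpha-ketoglutarate dehydrogenase complex, at 0.20 ± 0.10 (SE, adjusted p = 0.171). MRPL22 was at 0.01 ± 0.06 (SE, adjusted p = 0.922) and MRPL57 at -0.06 ± 0.21 (SE, adjusted p = 0.9).

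The remaining genes of the pathway were read from lists, against 8.43% of all genes that rose and 7.28% that fell. Of 5 other proteins of the ribosome, 2 rose at day 7 and 0 fell: DAP3, a GTP-binding protein of the small subunit that carries no MRPS symbol here (log2 0.30 ± 0.07, edgeR adjusted p = 0.00377), and AURKAIP1 (log2 0.22 ± 0.07, adjusted p = 0.0252). Of 10 translation factors 2 rose, the elongation factor TUFM (log2 0.22 ± 0.07) and the recycling factor MRRF (log2 0.34 ± 0.11), and 0 fell. Of 24 assembly factors 4 rose and 0 fell: the methyltransferases MRM1 (log2 1.02 ± 0.20), MRM2 (0.26 ± 0.09) and MRM3 (0.38 ± 0.12), which modify the large ribosomal RNA, and YBEY (0.38 ± 0.12). Of 12 genes of mitochondrial transcription and its regulation 3 rose and 0 fell: ESRRA (log2 0.42 ± 0.11), TFB2M (0.36 ± 0.10) and PPRC1 (0.30 ± 0.09). Side by side, 23 of 79 cytosolic ribosomal protein genes rose (median log2 0.17), as did 9 of 74 nuclear genes of the respiratory chain (0.10) and 5 of 13 mitochondrially encoded genes (0.40). The share that rose was 40% of the other ribosome proteins, 38.5% of the mitochondrially encoded genes and 29.1% of the cytosolic ribosomal protein genes. These stand beside 32.4% of the members. It was 20% of the translation factors, 16.7% of the assembly factors, 25% of the transcription genes and 12.2% of the respiratory chain genes, the last near that of all genes.

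At day 3, few members passed. The day 3 test used b2 libraries of the day 3 and day 7 table. With those of untreated and day 7 in that table, 12 of 74 members rose at day 7 and 0 fell. In that fit 1495 of 10605 genes passed in either direction, so this total is not the share of genes that rose. On simulated data the day 3 test found 49% of 1.5-fold changes, against 77% for the day 7 test. There 200 genes of low to high counts were changed, with the same spread for every gene. The rates are therefore not those of the members, and smaller rises could be missed. Of 75 members 2 rose (2.67%) and 0 fell by edgeR, where 3.51% of all 10586 genes passed, 1.84% higher and 1.67% lower. The count of 2 is near the share of all genes and is no result about the members. Their median log2 change was 0.07, against 0.00 over all genes, with 0.07 in the large and 0.08 in the small subunit. At an unadjusted p under 0.05, 8 members were higher and 5 lower. Every day 3 library lay above every untreated one for 9 members (8.6% of all genes) and below for 9 (8.14%). At day 3, 0 genes passed in either direction among the 5 other ribosomal proteins, 10 translation factors, 19 assembly factors and 11 genes of mitochondrial transcription tested there, with 0, 0, 7 and 1 at an unadjusted p under 0.05. MRM2 and MRM3, which rose at day 7, are not listed in that table and had no day 3 test.

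MRPS11 and MRPL32 were the members that rose at day 3. MRPS11 held 114, 117 and 124 CPM in the untreated libraries, 155, 154, 145 and 154 at day 3 and 168, 149.7, 149 and 156 at day 7. MRPS11 libraries of day 3 and day 7 overlapped: the log2 change was 0.36 ± 0.08 (SE, adjusted p = 0.00535) from untreated to day 3 and 0.03 ± 0.07 (SE, adjusted p = 0.86) from day 3 to day 7. MRPL32 held 98.7, 95.8 and 95.3 CPM in the untreated libraries, 125, 110.4, 126 and 135 at day 3 and 171, 147, 136 and 152 at day 7. MRPL32 stood in steps, with every day 3 library between the untreated and the day 7 libraries, at 0.36 ± 0.09 (SE, adjusted p = 0.0209) to day 3 and 0.29 ± 0.08 (SE, adjusted p = 0.0304) from day 3 to day 7. The day 3 call of MRPL32 was lost without any of the 3 untreated libraries or day 3 replicate 11 or 12 (adjusted p up to 0.0965), and the count was then 1. The next member by p was MRPS36, at 0.34 ± 0.12 (SE, adjusted p = 0.103). MRPS36 held 36.96, 32.1 and 40.3 CPM in the untreated libraries, 45.1, 47.5, 43.2 and 49.8 at day 3 and 42.8, 46.9, 49.0 and 41.2 at day 7. Every day 3 library of MRPS36 lay above the untreated ones, and its day 7 libraries did too.

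From day 3 to day 7, 8 of 75 members rose and 0 fell by edgeR, where 5.07% of all genes passed, 2.76% higher and 2.31% lower. The median log2 change was 0.10, against 0.01 over all genes. It was 0.16 in the large subunit, where 6 of 47 rose, and 0.06 in the small subunit, where 2 of 28 rose. At an unadjusted p under 0.05, 20 members were higher and 0 lower, and 65 of 75 lay above 0. Every day 7 library lay above every day 3 library for 14 members (6.17% of all genes; 5.47% lay below). This comparison shares its day 3 libraries with the one before, so a low day 3 value enters both.

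The 8 were MRPL3, MRPL15, MRPL18, MRPL32, MRPL40, MRPL52, MRPS2 and MRPS12. MRPL52 held 379, 357 and 368 CPM in the untreated libraries, 338, 330.1, 315 and 341 at day 3 and 384, 415, 401 and 436 at day 7. MRPL15 held 140.5, 136 and 141 CPM in the untreated libraries, 128, 126, 127 and 127 at day 3 and 159, 162, 154 and 154 at day 7. In both, day 3 lay below untreated in every library before day 7 lay above, with log2 changes of -0.15 ± 0.07 (SE, adjusted p = 0.236) and -0.13 ± 0.07 (SE, adjusted p = 0.369) at day 3, which did not pass, and 0.31 ± 0.06 (SE, adjusted p = 0.0023) and 0.31 ± 0.07 (SE, adjusted p = 0.00452) from day 3 to day 7. MRPS12 held 193, 177 and 200.01 CPM in the untreated libraries, 182, 155, 174 and 199 at day 3 and 222, 217, 216 and 250.4 at day 7. MRPS12 changed by 0.35 ± 0.08 (SE, adjusted p = 0.00469). MRPL18 held 184, 193 and 191 CPM in the untreated libraries, 220.2, 231, 217 and 201 at day 3 and 296, 271, 256 and 234 at day 7. MRPL18 rose by 0.28 ± 0.07 (SE, adjusted p = 0.0159), after a day 3 value of 0.20 ± 0.08 (SE, adjusted p = 0.182). Of the others MRPL40 was at 0.26 ± 0.07 (SE, adjusted p = 0.0232), MRPS2 at 0.29 ± 0.08 (SE, adjusted p = 0.0233) and MRPL3 at 0.25 ± 0.07 (SE, adjusted p = 0.0283).

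**Figure D3:**
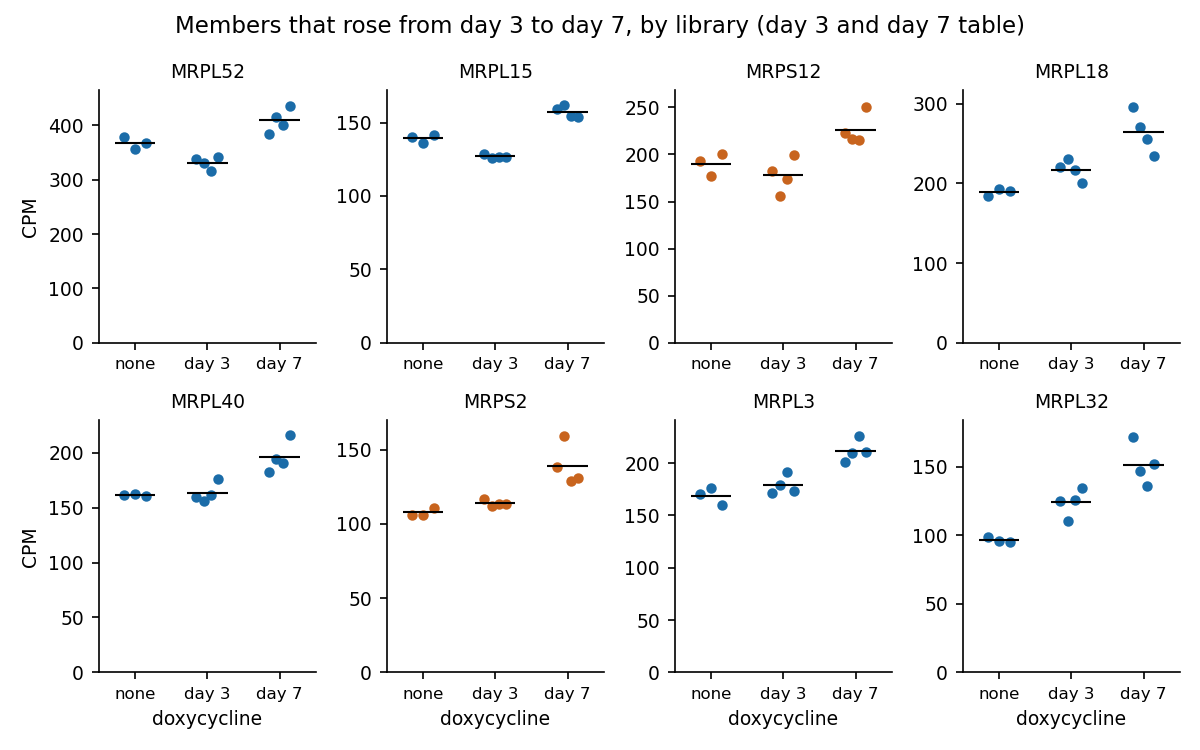
CPM of the 8 members that rose from day 3 to day 7, in each b2 library of the day 3 and day 7 table without doxycycline (none), at day 3 and at day 7; lines are group means, and the axes start at 0. Day 7 lies above day 3 in every panel, and MRPL52 and MRPL15 dip at day 3.

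MRPL15, MRPL52 and MRPS12 passed in each of the 8 fits that left out 1 library of these 2 groups. The count fell to 4 without day 3 replicate 10 and to 5 without day 3 replicate 9 or 11. In those 3 fits 387, 428 and 408 of all genes passed, against 537 in the main fit. MRPL18 was lost without day 3 replicate 12 (adjusted p = 0.0787). MRPL3, MRPL32, MRPL40 and MRPS2 were each lost without 4 or 5 of the 8 libraries, with adjusted p up to 0.118, 0.158, 0.115 and 0.104. Over the same interval 0 of 75 cytosolic ribosomal protein genes and 0 of 55 respiratory chain genes passed by edgeR, with medians of -0.03 and -0.01, and 9 and 7 had an unadjusted p under 0.05. At day 3 those lists had 6 of 75 and 1 of 55 that rose, with medians of 0.15 and 0.05. Whether the lists differ from the members in timing was not tested.

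Between untreated b2 and b1 libraries, 11 of 74 members (14.9%) were higher in b2 and 22 (29.7%) lower, where 46.6% of all genes passed, 23.4% higher and 23.2% lower. The total of 33 is near the share of all genes and is no result about the members. With library size alone as the scaling it was 17 higher and 21 lower. The large subunit had 6 higher and 17 lower of 46 (median log2 -0.10), and the small subunit 5 and 5 of 28 (median 0.02). Of the large subunit members without a bacterial homologue, 4 were higher and 8 lower of 16, with a median of -0.26. Across the 33 members called, log2 differences ran from -1.33 in MRPL47 to 2.21 in MRPL46. Both extremes are from low counts, 5 to 42 UMIs per library for MRPL47 and 2 to 21 for MRPL46. The level of MRPL46 also depended on the table.

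MRPS2 differed most surely, at -0.77 ± 0.09 (SE, adjusted p = 1.12e-07), with 155, 148 and 141 CPM in b1 and 85.9, 88.7 and 86.1 in b2. MRPL43, a mitochondria-specific protein, was at -1.06 ± 0.12 (SE, adjusted p = 8.01e-07), with 347, 290.4 and 266 CPM in b1 and 157, 136 and 140.0 in b2. MRPL37 was at -0.61 ± 0.08 (SE, adjusted p = 2.45e-07), MRPL41 at -0.67 ± 0.08 (SE, adjusted p = 2.97e-07), MRPL55 at -0.72 ± 0.10 (SE, adjusted p = 2.07e-06) and MRPL23 at -0.70 ± 0.12 (SE, adjusted p = 2.45e-05), all lower in b2 in every library. MRPS18B was at 0.65 ± 0.08 (SE, adjusted p = 2.48e-07) and MRPL16 at 0.61 ± 0.08 (SE, adjusted p = 1.2e-06), both higher in b2 in every library. For MRPL16, b1 held 90.4, 83.0 and 91.8 CPM and b2 held 135, 138 and 132. Within the S18 family MRPS18C was at 0.33 ± 0.12 (SE, adjusted p = 0.0202) and MRPS18A at -0.08 ± 0.10 (SE, adjusted p = 0.526), which did not pass. The call of MRPS18C was lost without untreated b1 replicate 1 or untreated b2 replicate 1 or 2.

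**Figure D4:**
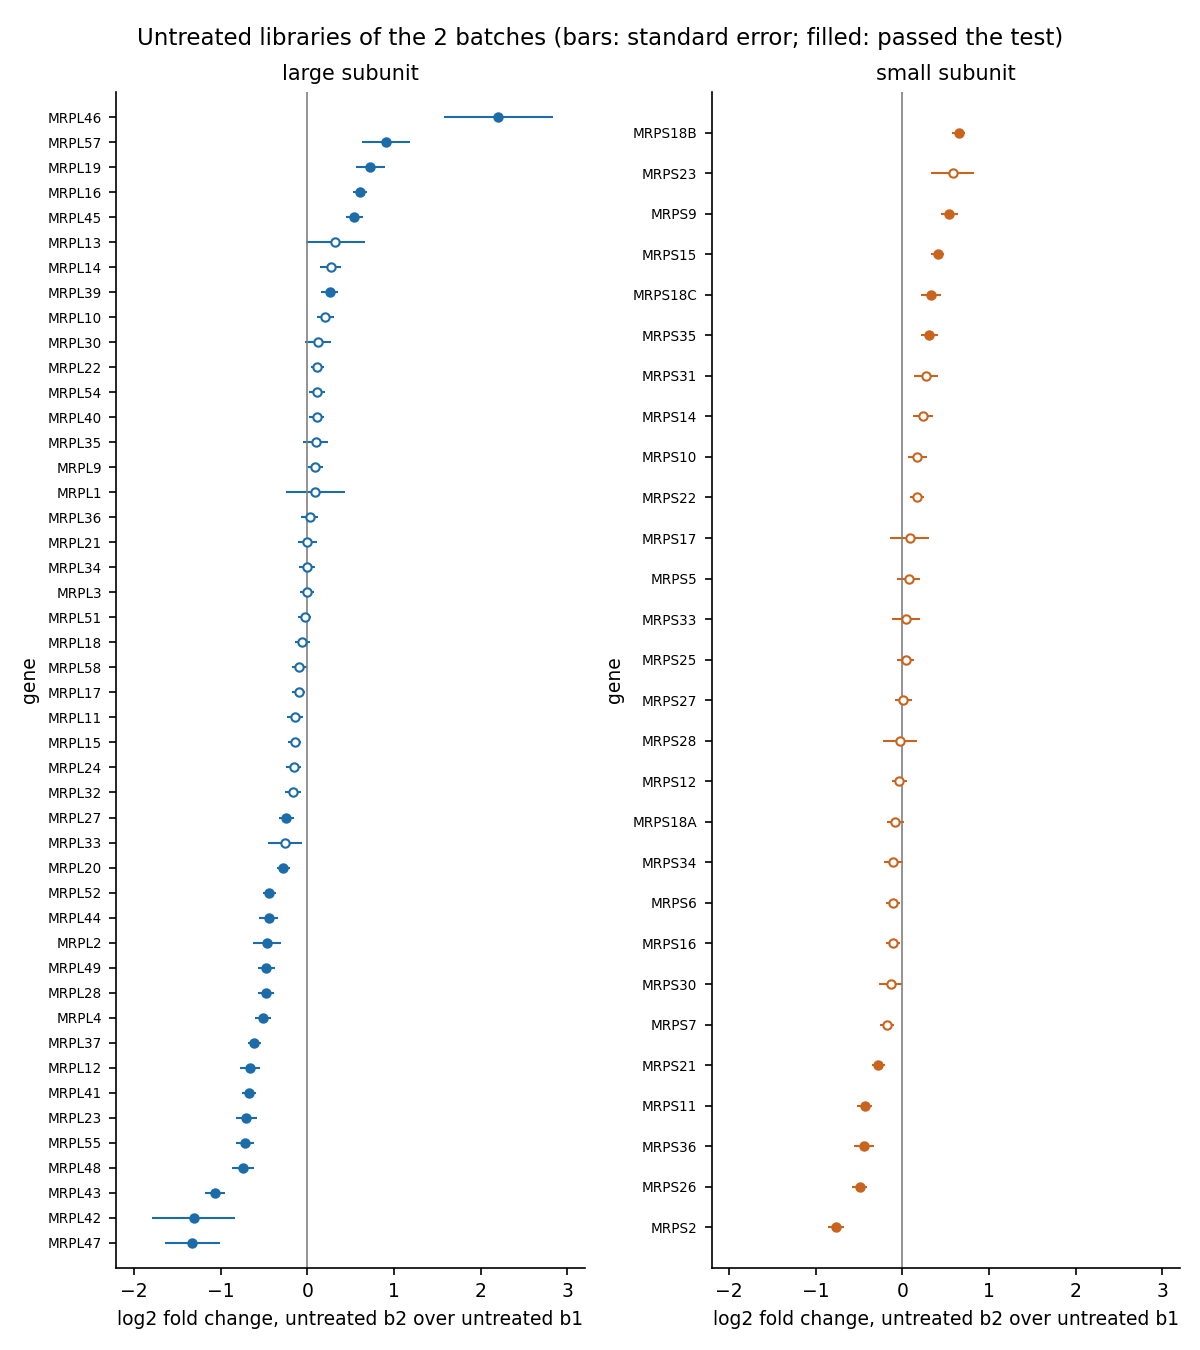
Log2 fold change of untreated b2 over untreated b1 for each member tested (day 7 table), large subunit on the left and small subunit on the right, with bars for the standard error and filled points for members that passed the test. The large subunit has 17 filled points left of 0 and 6 right of it, and the small subunit 5 on each side.

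Whether the day 7 change differed between the batches was tested as an interaction. By edgeR 0 of 74 members passed, as by DESeq2, with 9 at an unadjusted p under 0.05, where 2.64% of all genes passed, 1.52% with a larger and 1.12% with a smaller change in b2. MRPL49 (-0.48 ± 0.16 (SE, adjusted p = 0.101)), MRPS26 (-0.44 ± 0.15 (SE, adjusted p = 0.114)) and MRPL12 (-0.54 ± 0.19 (SE, adjusted p = 0.151)) had the smallest p, with a smaller change in b2 than in b1. Without day 7 b2 replicate 17, MRPL12 (log2 -0.64, adjusted p = 0.00481) and MRPL49 (log2 -0.52, adjusted p = 0.0376) passed, and without untreated b1 replicate 1 MRPL12 passed (log2 -0.66, adjusted p = 0.0377). The b1 side rests on 1 day 7 library. On the simulated data described above this test found 44% of 2-fold differences and 9% of 1.5-fold ones. Those rates are not those of the members, and differences of the size of these changes could be missed.

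The tables do not hold the same counts for the same libraries. Over the 5 libraries mapped in both, the UMIs of 13 of 73 members (17.8%, against 25.8% of all genes) differed by over 1.5 times, and the median ratio of the members was 1.01. MRPL17 was lower in the second, with 5995 UMIs against 80, as did MRPS25 with 1806 and 80, MRPS14 1166 and 55, MRPS16 3862 and 1142, MRPL19 654 and 71, and MRPL30 618 and 93. The other 7 were higher in the day 3 and day 7 table: MRPL38 (22 against 1589), MRPL46 (53 against 1619), MRPS23 (163 against 2585), MRPS28 (258 against 1703), MRPL23 (718 against 4612), MRPS17 (217 against 639) and MRPL42 (29 against 57). Of the 24 risen members MRPS25 and MRPS28 are among these 13. Leaving all 13 out, 22 of 62 members rose at day 7.

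**Figure D5:**
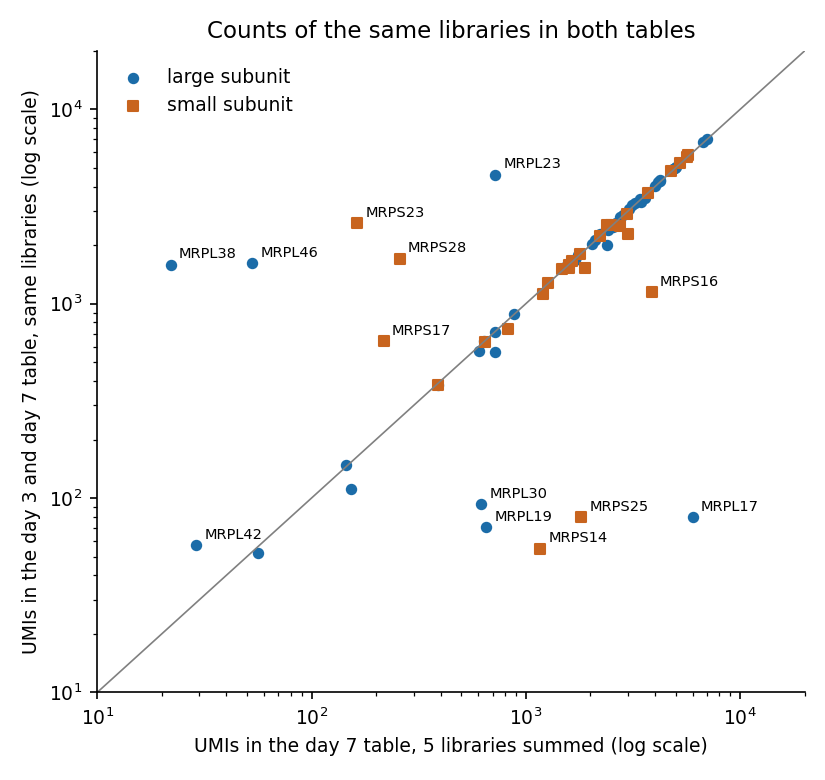
UMIs of each member summed over the 5 libraries mapped in both tables, in the day 7 table (x axis, log scale) and in the day 3 and day 7 table (y axis, log scale); the line marks equal counts, and the 13 members that differ by over 1.5 times are named. The other 60 members lie close to the line.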

How the data were processed

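Whole-number UMI counts per gene were deposited by the authors in 2 tables, 1 column per library. Per the submitters' processing notes, bcl2fastq, cutadapt, STAR 2.4.2a, HTSeq and DESeq2 were named, with build hg38. A further 55 per-sample columns were left unused. No gene listed in either table has a highest count below 6. After filterByExpr (12449 and 10586 genes kept) and TMM scaling, edgeR 4.0.16 (R 4.3.3) gave the main tests by its robust quasi-likelihood method. P-values were adjusted by Benjamini-Hochberg across every gene kept, at a threshold of 0.05. The day 7 comparison used the day 7 table with a batch term, day 3 and day 7 against day 3 used the other table, and the batches and the interaction a fit of 4 group means. Alternatives were DESeq2 1.42.0, limma-voom (limma 3.58.1), other scalings and filters, single batches and leaving out each library. The first 2 untreated columns of the day 3 and day 7 table carry numbers shared by b1 and b2 samples. They were taken as b2 because the untreated columns there are numbered 1, 2 and 4, as in b2, while b1 has 1, 2 and 3. By counts each matched its own library best. Libraries held 2573290 to 5567651 UMIs (day 7 table) or 1816599 to 4656705 (other table). Tested on simulated data, 1.5-fold changes were found in 77% of cases at day 7 and 49% at day 3, and in 62% between day 3 and day 7. These rates are for 200 changed genes of low to high counts with the same spread for every gene, not for the members. The 27 pairs of libraries of 1 group, among them untreated b2 and day 7 b2 pairs counted in both tables, spread 1.54 to 6.40 times as much as counting alone. None was therefore taken as a duplicate of another library. This cannot tell separate cultures from repeat libraries of 1 culture.

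The members and the gene lists were chosen with earlier results of these data known. Named were up to 20 members called at day 7 with the smallest p, up to 8 in each other comparison (or the 3 with the smallest p where fewer than 3 were called), the 3 highest and 3 lowest, and a list of members of known interest. MRPL11, MRPL21, MRPS7, MRPL1, MRPL47 and the members whose counts differ between the tables were added after their values were seen. Subunits are by symbol. Positions and overlaps at 3′ ends are from GENCODE v29 (GRCh38), to which all 78 members matched. Figures were drawn with matplotlib 3.10.9.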

Additional observations from a re-analysis of the deposited data

Results flagged for a closer look

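In groups of 4 libraries, 1 library stood far from the other 3 in 5 of the 121 groups checked, and chance alone gives this in about 1 in 20 groups. All 5 are in the day 3 and day 7 table. MRPL20 held 299.3 CPM in day 3 replicate 12 and 258 to 259 in the other day 3 libraries. MRPS11 held 145 CPM in day 3 replicate 11 and 154 to 155 in the others. MRPL23 held 257 CPM in day 7 replicate 19 and 291 to 293 in the others. MRPL43 held 231 CPM in day 7 replicate 17 and 169.5 to 175 in the others. The summed small subunit level was 3805 CPM in day 7 replicate 17 and 3586 to 3609 in the others.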

How the results depend on the processing

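At day 7 the count of risen members was 24. It was 22 to 26 with DESeq2, limma-voom, other size factors, no filter or a mean of at least 20 counts. Of all genes, 1747 to 1965 passed in those fits in either direction, against 1955 in the main fit. When 1 library was left out it was 18 to 28, where 1405 to 1970 genes passed. With library size alone it was 15, where 2096 of 12449 genes passed, and without a batch term 6, where 316 passed. With the b2 counts of the day 3 and day 7 table it was 12, where 1495 of 10605 genes passed in either direction. In each of these fits 0 members fell. In b1 with its 1 day 7 library (chosen after seeing the data) the median log2 change of the members was 0.23. MRPL41 turned from 0.21 to -0.0034 without a batch term, as the only one of the members called to change direction, and the cause was not tested. The refits of members that were not called were not compared one by one. The day 3 count of 2 was 1 to 2 with 1 library left out, where 191 to 272 of all genes passed, against 372 in the main fit. From day 3 to day 7 the count of 8 was 4 to 8, where 387 to 645 genes passed, against 537. Between untreated batches the count of 33 was 28 to 33 with 1 library left out, where 5049 to 5423 genes passed, against 5806. With a replicate block it was 33, of which 30 were shared, where 5147 genes passed. Replicate numbers 1 and 2 occur in both batches but do not pair the libraries, with deviations of the same number correlated at -0.02 and 0.00. The interaction count of 0 was 0 to 2 with 1 library left out. With MRPS18A and MRPS30 in the large subunit, the ratio of large to small sums was 2.22, 1.93, 2.33 and 1.97 in untreated b1, untreated b2, day 7 b1 and day 7 b2 of the day 7 table, and 1.97, 1.95 and 2.01 at no doxycycline, day 3 and day 7 of the other. In the day 7 table depth limits MRPL42, MRPL46 and MRPL47 most among members tested, and MRPL38 and MRPS24 were too low to test. In the other table MRPL46 held 176 to 482 UMIs, while MRPL42, MRPL50, MRPL19, MRPS14, MRPL47 and MRPL17 held 3 to 23.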

Other observations

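The members listed in 1 table alone add some values. MRPL22, MRPS24 and MRPL58 are in the day 7 table alone, and MRPL50 and MRPL53 in the other. The day 3 and day 7 table lists MRPL58 under its older symbol ICT1, with 129 to 158 CPM untreated, 154 to 167 at day 3 and 167 to 182 at day 7. The change of ICT1 was 0.16 ± 0.08 on the log2 scale at day 3 (edgeR adjusted p = 0.318), and between day 3 and day 7 it was 0.10 ± 0.07 (adjusted p = 0.53). MRPL53 was at -0.18 ± 0.08 at day 3 (adjusted p = 0.268), with every day 3 library below every untreated one, and at 0.20 ± 0.08 from day 3 to day 7 (adjusted p = 0.131).

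Another gene overlaps the last 500 bases of the gene in 7 of the 13 members whose counts differ by over 1.5 times between the tables, and in 12 of the other 60. A named pseudogene exists for 4 of the 13 and 27 of the 60. The part of either in the difference was not tested.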
